A study of Homo sapiens with 4 samples.

Results

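The inhibitor of apoptosis proteins (IAPs), their mitochondrial antagonists, the apoptosome and an executioner caspase were examined as 8 genes in chaetocin-treated U87MG cells. The genes were taken from a list of names by their role in cell death, and all 8 were found among the 57905 genes that were counted. They are the inhibitors *BIRC2*, *BIRC3* and *XIAP*, the antagonists *DIABLO* and *HTRA2*, the apoptosome parts *APAF1* and *CASP9*, and the executioner *CASP6*. Other executioner caspases were not analysed here. U87MG is an established human glioblastoma (GBM) line, given as wild type in the labels. RNA sequencing covered 2 samples of untreated control cells and 2 samples of cells that received 50 nM chaetocin for 24 h. Chaetocin is a fungal metabolite known as an inhibitor of histone methyltransferases. It was added in DMSO, whereas the control cells were left untreated, so the effects of the compound and of its solvent cannot be told apart. Nothing in the labels ties the samples of a group to separate cultures, and p-values therefore measure the spread between these samples, which may be technical. The study asked how chaetocin changes the expression of apoptosis genes in cells that it sensitizes to TRAIL, a ligand of death receptors.

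In the mitochondrial route to apoptosis, cytochrome c leaves the mitochondria and binds APAF1, which assembles into the apoptosome and activates the initiator CASP9. CASP9 in turn activates executioner caspases, which cleave many cell proteins. XIAP binds and blocks active caspases directly, whereas the proteins of *BIRC2* and *BIRC3*, cIAP1 and cIAP2, act mainly as ubiquitin ligases in death receptor and NF-kB signalling. DIABLO (also called Smac) and HTRA2, a serine protease, are released from mitochondria with cytochrome c and bind IAPs, which frees caspases.

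The DNA just upstream of the 3 inhibitor genes is shown because these genes belong to one family and stood on different sides of control in the values below. *BIRC3* and *BIRC2* are neighbours on the plus strand of chromosome 11, 7807 bases apart in GENCODE v29 on GRCh38, and *XIAP* lies on chromosome X. The sequences run 5′ to 3′ and end before the first annotated base of the gene. They come from RefSeq on GRCh38.p14, and capitals mark matches on either strand to the NF-kB consensus or to the SP1 motif GGGCGG.
BIRC2 (chr11:102346964-102347210, plus strand): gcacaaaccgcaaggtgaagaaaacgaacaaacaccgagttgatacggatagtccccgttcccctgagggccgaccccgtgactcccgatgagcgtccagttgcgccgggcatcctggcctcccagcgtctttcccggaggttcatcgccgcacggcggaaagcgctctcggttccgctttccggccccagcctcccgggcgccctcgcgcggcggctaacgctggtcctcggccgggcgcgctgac
BIRC3 (chr11:102317234-102317449, plus strand): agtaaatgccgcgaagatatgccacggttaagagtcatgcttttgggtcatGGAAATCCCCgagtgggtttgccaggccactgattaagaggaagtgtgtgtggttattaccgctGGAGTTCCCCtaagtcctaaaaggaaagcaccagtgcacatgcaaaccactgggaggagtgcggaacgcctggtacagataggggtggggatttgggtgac
XIAP (chrX:123859458-123859707, plus strand): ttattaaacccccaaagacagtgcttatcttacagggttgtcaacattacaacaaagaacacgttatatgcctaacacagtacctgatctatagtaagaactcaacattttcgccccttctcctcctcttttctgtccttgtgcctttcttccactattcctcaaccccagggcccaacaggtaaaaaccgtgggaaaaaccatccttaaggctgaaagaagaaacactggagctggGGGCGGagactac
The *BIRC3* sequence holds 2 matches to the NF-kB consensus, a motif present in 5.05% of the 27305 promoters of the same set over 250 bases upstream of the start. None of the other 7 genes had such a match in that window. In the same window before the RefSeq start, the SP1 motif was found for 5 of the 8 genes, *XIAP* among them, and in 42.3% of all promoters. For *APAF1*, *CASP9* and *CASP6* these matches lie inside the gene as GENCODE v29 annotates it. The antioxidant response element, searched as TGACNNNGC, was found upstream of 0 of the 8 genes and in 11% of all promoters. The printed *BIRC2* sequence has a GC content of 67.6% and 32 CpG sites, against 44.8% and 4 CpG sites for *XIAP* and 51.9% and 7 for *BIRC3*. The set holds 2 windows for *BIRC2*, 1 for *BIRC3* and 3 for *XIAP*, and only the one nearest the annotated gene start was examined. Which start these cells use was not tested. A match to letters is no evidence of binding, and no binding was measured.

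Library totals ranged from 21241984 to 32590479 counts. A count of 3, the limit that 0 reads allows, corresponds to between 0.0921 and 0.141 reads per 1000000 (CPM) and covers counting error only. Each of the 8 genes had at least 288 reads in every sample. Of 6 markers of glioblastoma lines, *VIM* and *CD44* were abundant, *GFAP* was at most 1.02 CPM, and *SOX2* and *S100B* had 0 reads in both control samples. The summed level of these markers was 4791 to 5495 CPM in control and 1971 to 3221 CPM in chaetocin samples, where DESeq2 called 2 of them lower and edgeR 0, with 3 at an unadjusted p under 0.05. Of 8 leukocyte markers, *CD3E* and *MS4A1* had 0 reads in all samples, and the summed level was 1.598 to 1.77 CPM in control and 3.35 to 5.15 CPM in chaetocin samples, where *PTPRC*, with 0 and 1 reads in control and 15 and 27 in chaetocin samples, was called higher by edgeR's quasi-likelihood test but not by DESeq2. Of 3 endothelial markers 2 were matched, and these summed to 0.86 and 1.29 CPM in control and 2.11 and 3.15 CPM in chaetocin samples. The sum of 3 epithelial markers was 1.23 and 1.29 CPM in control and 2.34 and 2.76 CPM in chaetocin samples. The part of these differences in the results below was not tested. In bulk samples, fewer cells of a type and less RNA per cell cannot be told apart.

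None of the 8 genes passed an adjusted p-value of 0.05 between chaetocin and control in edgeR's quasi-likelihood test, whereas *XIAP* came nearest to it and passed in DESeq2. *XIAP* was higher and *BIRC2* lower in both chaetocin samples than in both control samples, so that 2 inhibitors of one family stood on opposite sides of control. *CASP9*, *CASP6*, *APAF1*, *DIABLO* and *HTRA2* were also higher in both chaetocin samples, none past the threshold, and *BIRC3* overlapped between the groups. The edgeR quasi-likelihood test, fitted to 16416 genes with n = 2 samples per group, called 0 of the 8 genes higher and 0 lower. Over all genes tested it called 1.85%, with 1.11% higher and 0.743% lower. At an unadjusted p under 0.05 it gave 2 of the 8 genes, *XIAP* and *BIRC2*, against 20.3% of all genes tested. DESeq2's Wald test called 1 of the 8, *XIAP*, against 5.28% of the 16412 genes with an adjusted p, with 2.35% higher and 2.93% lower. Both chaetocin samples lay above both control samples for 6 of the 8 genes, against 26.8% of all genes, and below them for 1 gene, against 26% of all genes. In either direction these were 7 of the 8 genes, against 52.7% of all genes. The median log2 fold change was 0.20 over the 8 genes and 0.01 over all genes tested.

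**Figure D1:**
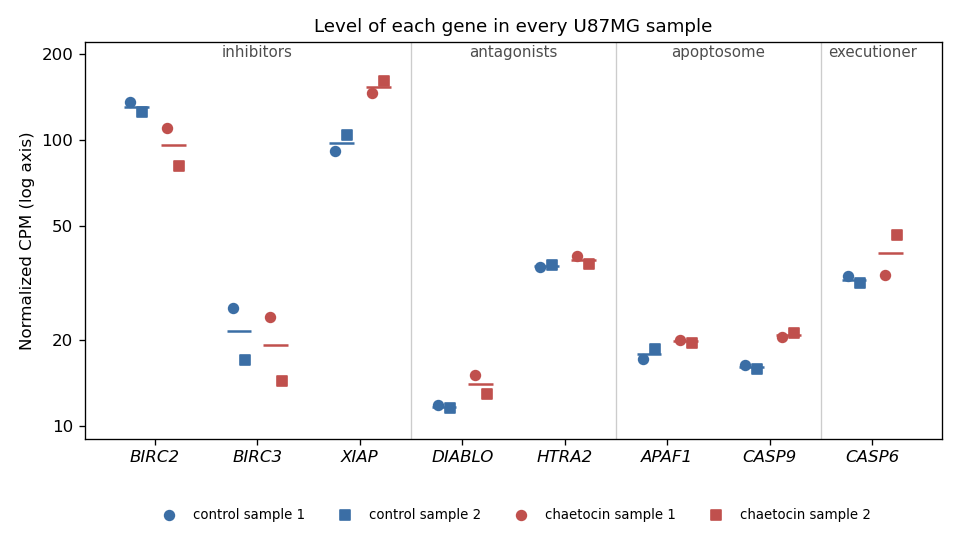
Normalized CPM of the 8 genes in every sample on a log axis, grouped by role, with circles for sample 1, squares for sample 2 and short lines for group means (n = 2 per group). The chaetocin samples of *XIAP*, 146 and 161 CPM, lie above its control samples, 91.4 and 104 CPM, whereas those of *BIRC2* lie below its control samples.

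*XIAP* (ENSG00000101966, chromosome X, 123859724 to 123913979 on GRCh38) encodes the IAP that inhibits caspases most directly. Control cells gave 2231 and 2988 reads and treated cells 3185 and 5736. In normalized CPM, these were 91.4 and 104 in control cells against 146 and 161 with chaetocin. The groups did not overlap, and their gap was wider than the difference between samples of a group. The group means were 97.7 ± 8.89 CPM and 154 ± 10.7 CPM (SD, n = 2 each), a 1.58-fold ratio. In the fit across all genes, *XIAP* was higher by 0.66 on the log2 scale with a standard error of 0.15 and a 95% interval of 0.31 to 1.00, at an adjusted p of 0.0655 in edgeR's quasi-likelihood test. DESeq2 gave an adjusted p of 0.0184 at a log2 fold change of 0.64, and the call was thus made by one tool and not by the other. Over 13 alternatives, the log2 fold change of *XIAP* stayed between 0.55 and 0.82, and 7 of them put it under the threshold, with adjusted p-values from 0.00173 to 0.531. The call was made without chaetocin sample 1 (adjusted p = 0.00173) and without chaetocin sample 2 (adjusted p = 0.0177), but not without control sample 1 (adjusted p = 0.531) or control sample 2 (adjusted p = 0.223), all in edgeR's quasi-likelihood test. Of the 50-base windows in *XIAP* transcripts, 4.56% also occur in transcripts of other genes on either strand, *XIAPP1* taking 1.51%.

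*BIRC2* (ENSG00000110330, chromosome 11, 102347211 to 102378670) encodes cIAP1. Its normalized level of 136 and 126 CPM in control cells compared with 111 and 81.2 CPM in treated cells. Both chaetocin samples were below both control samples, and the second was the lowest of all. The means were 131 ± 7.61 CPM and 95.9 ± 20.8 CPM (SD, n = 2 each). The fitted difference was -0.45 on the log2 scale, with a standard error of 0.18 and a 95% interval of -0.86 to -0.04 (adjusted p = 0.207, edgeR's quasi-likelihood test). Without chaetocin sample 1 the log2 fold change was -0.69, and without chaetocin sample 2 it was -0.25. It was -0.40 without control sample 1 and -0.52 without control sample 2. The size of the *BIRC2* difference thus depended on which chaetocin library was used.

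*BIRC3* (ENSG00000023445, chromosome 11, 102317450 to 102339403) encodes cIAP2, whose gene is a known NF-kB target. Control cells had 25.8 and 17.0 CPM and treated cells 24.0 and 14.3 CPM. In both groups sample 1 was the higher, and the groups overlapped. Its log2 fold change was -0.16 with a 95% interval of -0.82 to 0.49, which was less than the difference between the 2 control samples (adjusted p = 0.80, edgeR's quasi-likelihood test). Its sign turned to a value of 0.16 without control sample 1 or without chaetocin sample 2. *BIRC2* and *BIRC3* share 11 windows of 50 bases, or 0.224% of the *BIRC2* and 0.144% of the *BIRC3* windows, so few reads of this length could belong to either gene.

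The make-up of the inhibitor messages was then compared with their sum. Per kilobase of exons, the 3 inhibitors summed to 43.6 and 41.5 CPM in untreated cells, compared with 43.8 and 37.7 CPM after chaetocin. The groups overlapped in this sum. Without division by length, the sum was 253.5 and 246.6 CPM in untreated cells, compared with 281.1 and 257.0 CPM after chaetocin, and both chaetocin samples were above both control samples. *BIRC2* made up 68.9% and 66.8% of the sum per kilobase in control cells, but 55.7% and 47.5% in treated cells. The share of *XIAP* in the sum per kilobase was 23.2% and 27.8% in control cells against 37.0% and 47.4% with chaetocin, and the groups did not overlap. *XIAP* had 0.671 and 0.828 reads for each *BIRC2* read in control cells, compared with 1.32 and 1.99 after chaetocin. This ratio is taken within a library and does not depend on how libraries were scaled. An exact permutation test of 2 against 2 samples cannot give a two-sided p under 0.333, so none is given for it.

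**Figure D2:**
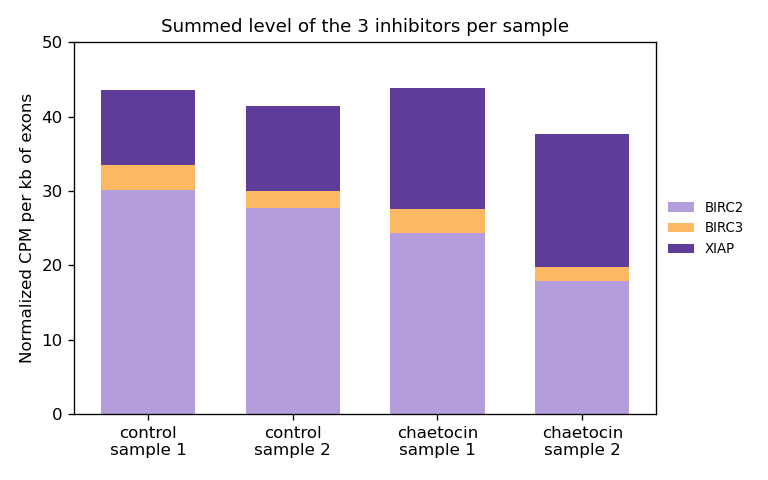
Summed level of *BIRC2*, *BIRC3* and *XIAP* per sample, in normalized CPM per kilobase of annotated exons, with 1 bar per sample. The total stays between 37.7 and 43.8, whereas the part from *XIAP* goes from 23.2% and 27.8% in the control samples to 37.0% and 47.4% in the chaetocin samples.

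The antagonists of the inhibitors were above control in both chaetocin samples, but neither passed the test. *DIABLO* (ENSG00000184047, chromosome 12, 122207663 to 122226568) was measured at 11.8 and 11.5 CPM in control cells, compared with 15.1 and 12.9 CPM after chaetocin. Both chaetocin samples were above both control samples, with a wider spread between them. Its log2 fold change was 0.26 with a 95% interval of -0.18 to 0.70 (adjusted p = 0.49, edgeR's quasi-likelihood test). *DIABLO* shares 28.9% of its 50-base windows with transcripts of other genes on the same strand. Most of them, 27.0%, are shared with a second gene annotated as *DIABLO* (ENSG00000284934), which shares 2006 exonic bases and was not analysed here. Another overlapping gene, *AC048338.1*, with 1139 shared exonic bases, had 0 reads in all samples. The second *DIABLO* gene is not among the genes that were counted, so no reads were assigned to it. On the opposite strand, exons of *B3GNT4* share 970 bases with *DIABLO*. *B3GNT4* had 12 and 0 reads in control and 6 and 13 in chaetocin samples. How reads in such overlaps were counted is not given in the sources used here, and the level of *DIABLO* is uncertain to that extent.

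*HTRA2* (ENSG00000115317, chromosome 2, 74529377 to 74533348) had the log2 fold change of smallest absolute size among the 8 genes. Its level was 35.9 and 36.6 CPM in control and 39.2 and 36.8 CPM in chaetocin samples. Its log2 fold change was 0.07 with a 95% interval of -0.27 to 0.41, which leaves out a change of 1 in either direction (adjusted p = 0.84, edgeR's quasi-likelihood test). On the opposite strand, exons of *LOXL3* and *AUP1* cover 625 and 483 bases of its 3001 exonic bases. *LOXL3* was measured at 130 and 88.4 CPM in control and at 102 and 40.8 CPM in chaetocin samples, and since the strand setting is not stated, its part in the value of *HTRA2* was not tested.

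For the apoptosome, both genes were higher in value with chaetocin, *CASP9* by more than *APAF1*. *CASP9* (ENSG00000132906, chromosome 1, 15490832 to 15526534), the initiator caspase, was measured at 16.3 and 15.8 CPM without chaetocin and at 20.4 and 21.03 CPM with it. The 2 samples of each group lay close together, and the groups did not overlap. The means were 16.1 ± 0.34 CPM and 20.7 ± 0.44 CPM (SD, n = 2 each). The fitted log2 fold change was 0.37, with a standard error of 0.17 and a 95% interval of -0.01 to 0.75 (adjusted p = 0.263, edgeR's quasi-likelihood test). The log2 fold change of *CASP9* stayed between 0.33 and 0.53 over all 13 alternatives, and 0 of them called it. *APAF1* (ENSG00000120868, chromosome 12, 98645141 to 98735433), the scaffold of the apoptosome, was measured at 17.0 and 18.6 CPM in control and at 19.99 and 19.4 CPM in chaetocin samples. Its log2 fold change was 0.14 with a 95% interval of -0.24 to 0.53 (adjusted p = 0.679, edgeR's quasi-likelihood test). *APAF1* had 1.05 and 1.17 reads for each *CASP9* read in control cells, compared with 0.98 and 0.924 after chaetocin.

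*CASP6* (ENSG00000138794, chromosome 4, 109688622 to 109703583), the executioner among the 8 genes and known to cleave nuclear lamins, was clearly above control in 1 chaetocin sample. Control cells had 33.3 and 31.6 CPM, and treated cells had 33.8 and 46.4 CPM. Chaetocin sample 1 was within 1 CPM of a control sample, whereas chaetocin sample 2 stood apart from the other 3 samples. Over both samples the log2 fold change was 0.31 with a standard error of 0.18 and a 95% interval of -0.12 to 0.73 (adjusted p = 0.391, edgeR's quasi-likelihood test). It was 0.05 without chaetocin sample 2 and 0.52 without chaetocin sample 1.

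**Figure D3:**
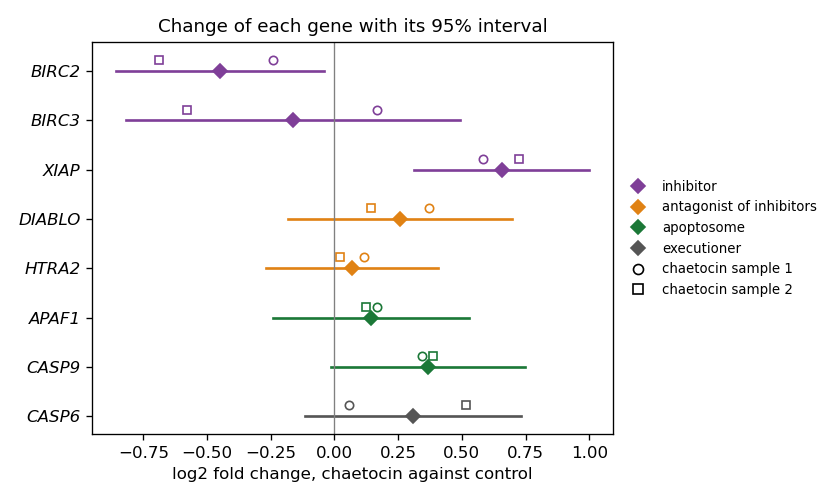
Log2 fold change of each gene, chaetocin against control, as a diamond with its 95% interval from edgeR's quasi-likelihood fit, coloured by role. Open circles and squares give chaetocin samples 1 and 2 against the control mean. The intervals of *XIAP* and *BIRC2* lie on opposite sides of 0, and the other 6 include 0.

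The inhibitors were then set against the apoptosome parts and the executioner within each library, as the mean log2 CPM of *BIRC2*, *BIRC3* and *XIAP* minus that of *APAF1*, *CASP9* and *CASP6*. This balance was 1.71 and 1.53 without chaetocin, compared with 1.61 and 1.10 with it. On this measure chaetocin sample 1 lay between the control samples. With sums of levels per kilobase in place of mean logs, the balance was 0.962 and 0.939 without chaetocin, compared with 0.881 and 0.315 with it, and the groups did not overlap. They did not overlap either when *XIAP* or *BIRC3* was left out of the inhibitors, but the gaps were small. Without *XIAP*, chaetocin sample 1 was at 1.10 and control sample 2 at 1.14. Without *BIRC3*, chaetocin sample 1 was at 2.408 and control sample 1 at 2.410. Leaving out *BIRC2* put chaetocin sample 1, at 1.31, above the control samples, at 1.21 and 1.00, and chaetocin sample 2, at 0.851, below them. The overlap thus depended on how the balance was taken. For the mean logs, the difference of -0.26 was smaller than the SD of 0.36 between the chaetocin samples. It was -0.59 when *XIAP* was left out of the inhibitors and -0.03 when *BIRC2* was left out. Without chaetocin sample 1 it was -0.51, and without chaetocin sample 2 it was -0.01. No test was made on this balance.

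Per kilobase of exons, *BIRC2* had the highest mean level of the 8 genes in control cells, at 28.9 CPM. *CASP6* followed with 16.7, *HTRA2* with 12.1 and *XIAP* with 10.8 CPM per kilobase. The remaining genes were between 1.72 CPM per kilobase for *DIABLO* and 3.05 for *CASP9*, with *BIRC3* at 2.85 and *APAF1* at 2.25. The samples of *APAF1* and *BIRC3* overlapped on this scale in control cells, as did those of *BIRC3* and *CASP9*. With chaetocin, *BIRC2* and *CASP6* were at 21.2 and 20.6 CPM per kilobase and overlapped between samples. *XIAP*, at 17.1, was above *HTRA2*, at 12.7, in both chaetocin samples, whereas it was below *HTRA2* in both control samples. Exon lengths are those of all annotated transcripts of a gene together, so genes with rarely used exons come out lower on this scale.

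Other genes of the pathway were followed in 7 lists with 51 genes, of which 48 passed the filter on low counts. Both edgeR's quasi-likelihood test and DESeq2 called 0 of these 48 genes. At an unadjusted p under 0.05, edgeR gave 4 higher and 4 lower, against 10.9% and 9.43% of all genes tested. Their median log2 fold change was -0.03, and 23 of them were above 0. Both chaetocin samples were above both control samples for 14 and below them for 18 of the 48, against 26.8% and 26% of all genes tested. *BIRC7*, an IAP of few tissues, and *CASP5* had 0 reads in all samples, and *CASP14* had 1 read in all.

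In the rest of the IAP family, *BIRC5*, known as survivin and expressed in mitosis, had a log2 fold change of 0.31, and *BIRC6*, a giant ubiquitin-conjugating IAP, one of -0.34. Partners and regulators of IAPs ranged from *XAF1*, an antagonist of XIAP, at -0.73 to *TRAF1*, an adaptor that binds cIAPs, at 0.51. *TRAF1* was measured at 7.87 and 7.90 CPM in control and at 11.4 and 11.03 CPM in chaetocin samples. *XAF1* was measured at 3.61 and 2.44 CPM in control and at 1.79 and 1.83 CPM with chaetocin. For both genes the groups did not overlap.

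Among the trigger and modulators of the apoptosome, *ANP32A* was at -0.46 and *PTMA* at 0.27 on the log2 scale. *CYCS*, which encodes cytochrome c and was named after its values were seen, had a log2 fold change of 0.07 and overlapped between the groups. Mitochondrial proteins ranged from *OPA1*, which shapes the inner membrane, at -0.34 to *PARL*, a rhomboid protease, at 0.23. Of the other caspases, *CASP1*, the inflammatory caspase, had the lowest log2 fold change, -0.85, with levels of 4.96 and 5.39 CPM in control and 2.80 and 2.93 CPM in chaetocin samples (adjusted p = 0.119, edgeR's quasi-likelihood test). *CASP2* had the highest, 0.38.

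Among caspase substrates and nucleases, 8 of 10 genes had a log2 fold change below 0, against 8059 of all 16416 genes tested, with a median of -0.21. No test of the list was made. The list ranged from *GSN*, which encodes the actin-severing protein gelsolin, at -0.45 to *LMNB1*, which encodes lamin B1, at 0.44. The 9 NF-kB genes had a median of 0.14 and ranged from *TNFAIP3*, a feedback inhibitor, at -0.41 to *CXCL8*, a chemokine, at 0.76. *CXCL8* was measured at 51.6 and 28.2 CPM in control and at 110 and 25.7 CPM in chaetocin samples and thus differed more within the groups than between them. Besides *TRAF1*, *CASP1*, *GSN* and *LMNB1*, the genes with an unadjusted p under 0.05 were *NFKB2* at 0.54, *NFKBIE* at 0.53, *PAK2* at -0.38 and *GSPT1* at -0.49. These 4 were named after their values were seen.

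**Figure D4:**
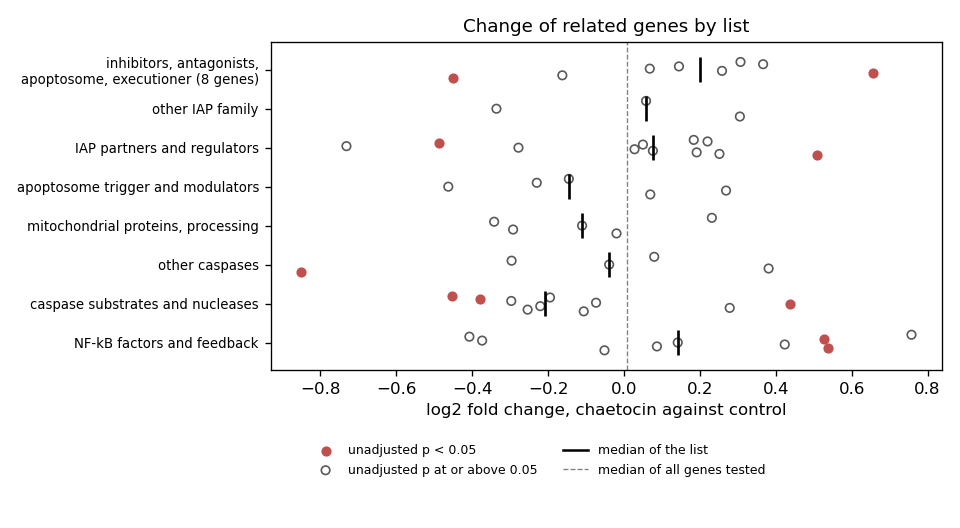
Log2 fold change, chaetocin against control, of the 8 genes (top row) and of the tested genes in 7 lists of related genes, 1 point per gene, with a black line at the median of each list. Filled points have an unadjusted p under 0.05 in edgeR's quasi-likelihood test, and the dashed line is the median of all genes tested, 0.01. The points of each list lie on both sides of 0.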

How the data were processed

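U87MG cells were sequenced in 2 untreated control samples and 2 samples treated with 50 nM chaetocin for 24 h, and groups were taken from the sample titles. Single-end reads of 50 bp were generated from polyadenylated RNA. The authors deposited raw counts per Ensembl gene for each sample, without normalization. The submitters' processing notes name cutadapt, TopHat2 and SAMtools and the build GRCh37. The counting tool, annotation release and strand setting are not given in the sources used here. Symbols, positions and exon lengths were taken from GENCODE v29 on GRCh38 by gene identifier, which matched 52338 of 57905 genes.

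Counts were tested in R 4.3.3 with edgeR 4.0.16: filterByExpr (minimum count 10), TMM scaling with factors of 0.942 to 1.09, a robust quasi-likelihood fit without a block, and Benjamini-Hochberg adjustment over all 16416 genes tested, with a threshold of 0.05. Standard errors were the absolute log2 fold change divided by the square root of F. Normalized CPM are reads per 1000000 of the TMM-scaled library. DESeq2 1.42.0 and other alternatives are given at the end. The 8 genes and the lists were chosen with earlier results of these data known. The rule named the called genes of a list and its highest and lowest log2 fold change. No list gene was called, and *CYCS*, *NFKB2*, *NFKBIE*, *PAK2* and *GSPT1* were named outside the rule. Totals ranged from 21241984 to 32590479 counts.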

Additional observations from a re-analysis of the deposited data

How the results depend on the processing

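Over all genes, 182 were called higher and 122 lower. With library totals alone the counts were 360 and 73, and with upper-quartile size factors 246 and 88. Keeping every gene gave 787 and 759, whereas a minimum of 10 reads per library gave 114 and 80. DESeq2's Wald test called 385 and 481, and the unadjusted p under 0.05 was met by 1791 and 1548. Leaving out 1 sample gave 215 to 1332 higher and 97 to 1673 lower, with 1332 and 1673 without chaetocin sample 1 and 712 and 940 without chaetocin sample 2. In such a fit the lone sample of a group is assumed to vary like the other group. Of the 8 genes, 0 were called, whereas 1 was higher with upper-quartile size factors, with library totals alone, without a filter and with DESeq2, each time *XIAP*, and at an unadjusted p under 0.05 1 was higher and 1 lower. Leaving out 1 sample gave 0 to 2 higher and 0 to 1 lower, with 2 higher and 1 lower without chaetocin sample 1. The log2 fold change of *BIRC3* ranged from -0.57 to 0.16 over the same fits, and the other 7 genes kept their sign in all 13 alternatives. The balance of inhibitors against apoptosome and executioner was -0.59 without *XIAP*. Library totals alone shifted the median log2 fold change of all genes to 0.173. The cause was not tested.

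Samples carry the numbers 1 and 2 in both groups, but no label says what a number shares. Across genes, the difference of sample 2 from sample 1 in control had a correlation of 0.191 with that in chaetocin, over these 2 pairs. A fit that took the number as a replicate block called 1036 genes higher and 1053 lower, and of the 8 genes 1 was higher (*XIAP*) and 1 lower (*BIRC2*). Of the 48 genes in the lists it called *NFKB2* higher (adjusted p = 0.0127) and *CASP1* (0.0454), *ANP32A* (0.0477) and *GSPT1* (0.0479) lower.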
